A study of Mus musculus with 8 samples.

Results

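Ubiquitin-specific proteases (Usp genes) were followed in Kupffer cells, which are macrophages that reside in the liver, after an abdominal operation that starts sepsis. The members are the rows of the count table with a mouse symbol made of Usp, digits and at most a short letter suffix. Usp18 and pseudogenes were left out, and at least 10 counts summed over the 8 libraries were required. This gave 41 genes of 55414 rows. Within the family, members were thus selected on 1 measured value, the pooled count, and the difference between the operations did not enter it. The family itself was chosen with earlier results of these data known. The member nearest to the limit was Usp27x with 597 pooled counts, and the gene just outside it was Usp43 with 9. Usp26, Usp13 and Usp50 had 4, 2 and 1 pooled counts, and Usp29, Usp44 and Usp51 had 0. All 41 members also passed the count filter of the test.

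Kupffer cells were isolated by fluorescence-activated cell sorting out of the liver of C57BL/6J wild-type animals, 2 h after caecal ligation and puncture (CLP) or after a sham operation (Sham), with 4 libraries in each group. In CLP the caecum is tied and pierced so that gut bacteria enter the abdomen. The antibodies of the sort and the age of the mice were not found in the labels. Nothing in the labels says that the libraries come from different mice, so the p-values cover the spread between these libraries, which may be technical.

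Ubiquitin is a small protein that is attached to other proteins, singly or in chains, and marks them for degradation by the proteasome, for transport or for signalling. Ubiquitin-specific proteases are the largest family of deubiquitinases, the enzymes that cut ubiquitin off again, and most are cysteine proteases with 1 conserved catalytic fold. In macrophages, ubiquitin chains join the adaptors and kinases downstream of Toll-like and tumour necrosis factor receptors, and deubiquitinases limit or prolong that signal.

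The libraries held 23311897 to 28724875 counts. Levels are given as counts-per-million values (CPM) scaled by the trimmed mean of M-values (TMM), which is called TMM-scaled CPM. CLP replicate 1 stood apart: across genes its log2 CPM correlated with the other CLP libraries at 0.968 to 0.972, against 0.986 to 0.987 among those 3 and 0.980 to 0.989 among Sham. All 12 Kupffer cell markers were tested, and their summed level was 35305 to 46122 CPM in CLP and 27151 to 35062 CPM in Sham, with 4 past the threshold as higher. Markers of other cells were present too. Neutrophil markers (8 of 8 tested higher, 12 in the list) summed to 235 to 564 CPM in CLP and 99.8 to 137 CPM in Sham, and platelet markers (6 of 6 tested higher, 8 in the list) to 121 to 196 CPM and 15.2 to 27.8 CPM. Hepatocyte markers (2 of 10 higher) summed to 5171 to 6465 CPM in CLP and 3924 to 5145 CPM in Sham, and endothelial markers (5 of 10 higher) to 2408 to 2911 CPM and 1657 to 2096 CPM. B cell markers (8 of 10 higher, 1 lower) gave 82.0 to 97.3 CPM in CLP and 66.9 to 78.4 CPM in Sham, and monocyte markers (1 of 4 tested higher, 6 in the list) 205 to 344 CPM and 158 to 264 CPM. The T and NK cell list (1 of 2 tested higher, 10 listed), the erythroid list (2 of 3 tested higher, 7 listed) and the stellate cell list (1 of 7 higher, 1 lower) each summed to at most 58.8 CPM in any library. Gp1bb and Hba-a2 were at 0. All these sums and calls use TMM scaling, with TMM factors of 0.801 to 0.837 in CLP and 1.16 to 1.28 in Sham. Without the factors the CLP values would be lower relative to Sham, and the marker sums were not taken that way. The part of these cells in the Usp values was not tested, and in bulk samples fewer cells of a type and less RNA per cell cannot be told apart.

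Most of the large changes in the Usp family were falls. By at least 2-fold, 7 of 41 members fell and 1 rose, beside 15.9% and 12.8% of all genes tested. Usp2 fell 9.63-fold, Usp30 and Usp20 fell about 3-fold (3.11-fold and 3.04-fold), and Usp46, Usp21, Usp1 and Usp40 fell 2.02-fold to 2.50-fold. Usp27x was the only member to rise at least 2-fold (2.30-fold), followed by Usp16 (1.88-fold), Usp14, Usp53, Usp9x and Usp36. The members with the highest level per length, Usp12 and Usp25, did not pass the test.

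Of the 41 members, 9 rose and 16 fell (25 in all, against 54.3% of all genes tested) at an adjusted p of 0.05 in edgeR's quasi-likelihood test over all 14655 genes, and 16 did not pass. These counts are to be read against a background of 24.9% of all genes higher and 29.5% lower, with 22% and 39% for the members. At 2-fold or more, 1 member rose and 7 fell, where 12.8% of all genes rose and 15.9% fell. The median log2 fold change was -0.10 over the members and -0.04 over all genes tested. The 2 groups of libraries were fully separate in 23 members, 8 upward and 15 downward, and in 49.5% of all genes. The shares upward depend on the scaling. With DESeq2 size factors 11 members rose and 12 fell, and with the DESeq2 test 13 and 14. A GC correction gave 10 and 11, and scaling by total counts alone 2 and 30. In the same order, 4021, 4251, 3842 and 1715 of all genes tested rose, and 3981, 4164, 4020 and 8292 fell. Total-count scaling moved the median of all genes from -0.04 to -0.60. Of the 9 rises, those of Usp16 and Usp27x alone stayed past the threshold under it, while all 16 falls did.

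**Figure D1:**
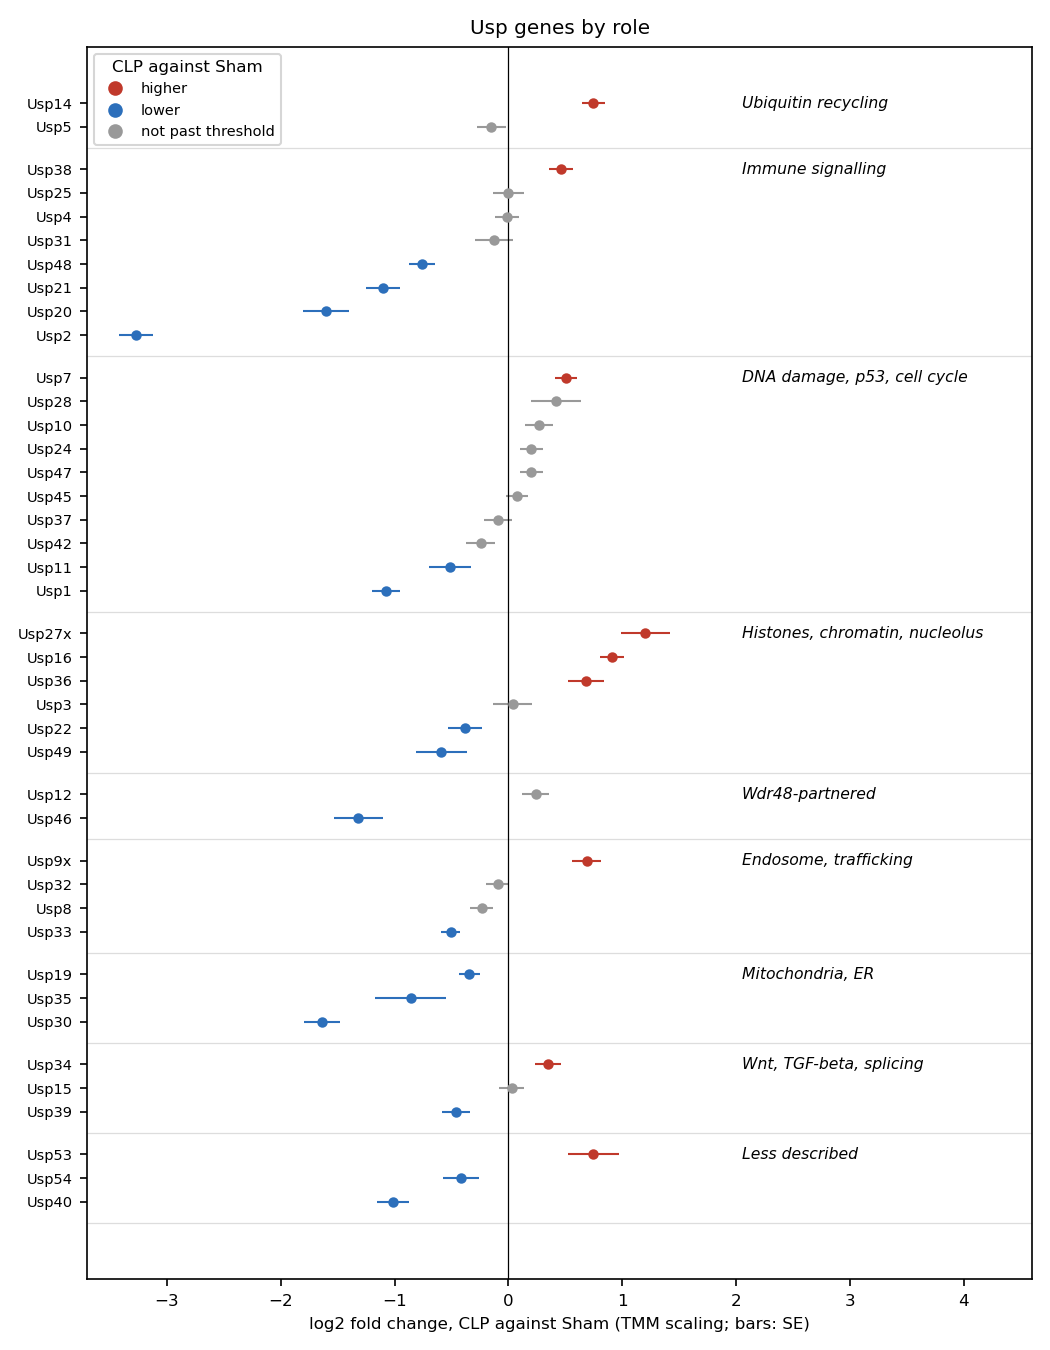
Log2 fold change of each of the 41 Usp genes in CLP against Sham (horizontal axis, TMM scaling, bars show the SE from edgeR) by role, coloured by whether the gene passed an adjusted p of 0.05. Usp2 lies farthest to the left at -3.27 and Usp27x farthest to the right at 1.20.

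The summed level of the family was 3037 ± 102 TMM-scaled CPM in CLP and 2848 ± 45.9 in Sham (SD, n = 4), and the ranges of 2887 to 3108 and 2781 to 2881 did not overlap. Without TMM factors the order turned, with 2504 ± 87.2 CPM by total counts in CLP and 3450 ± 141 in Sham. The TMM factors were 0.825 ± 0.0165 in CLP and 1.21 ± 0.0557 in Sham. The 5 members with the most counts made up 44.4% to 48.3% of the family sum in CLP and 36.9% to 39.6% in Sham.

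Levels of different genes were compared per kb of exon. Usp12, which removes ubiquitin from histones and receptors together with the WD-repeat protein Wdr48, was highest in Sham at 57.01 CPM per kb, and Usp25, a deubiquitinase of TRAF adaptors, followed at 52.8. Usp8 stood at 35.1 CPM per kb, and Usp7, Usp19 and Usp9x lay close together at 17.3 to 18.4. At the low end were Usp20, Usp49 and Usp27x with 0.428 to 0.747 CPM per kb in Sham. Usp2 moved from 9.02 CPM per kb in Sham to 0.934 in CLP, the longest move in the plot of levels per length. The members had long exon sets, with a median of 7.69 kb (2.45 to 18.5 kb) against 4.03 kb over all genes tested, and a median transcript GC content of 47.3% against 48.9%.

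**Figure D2:**
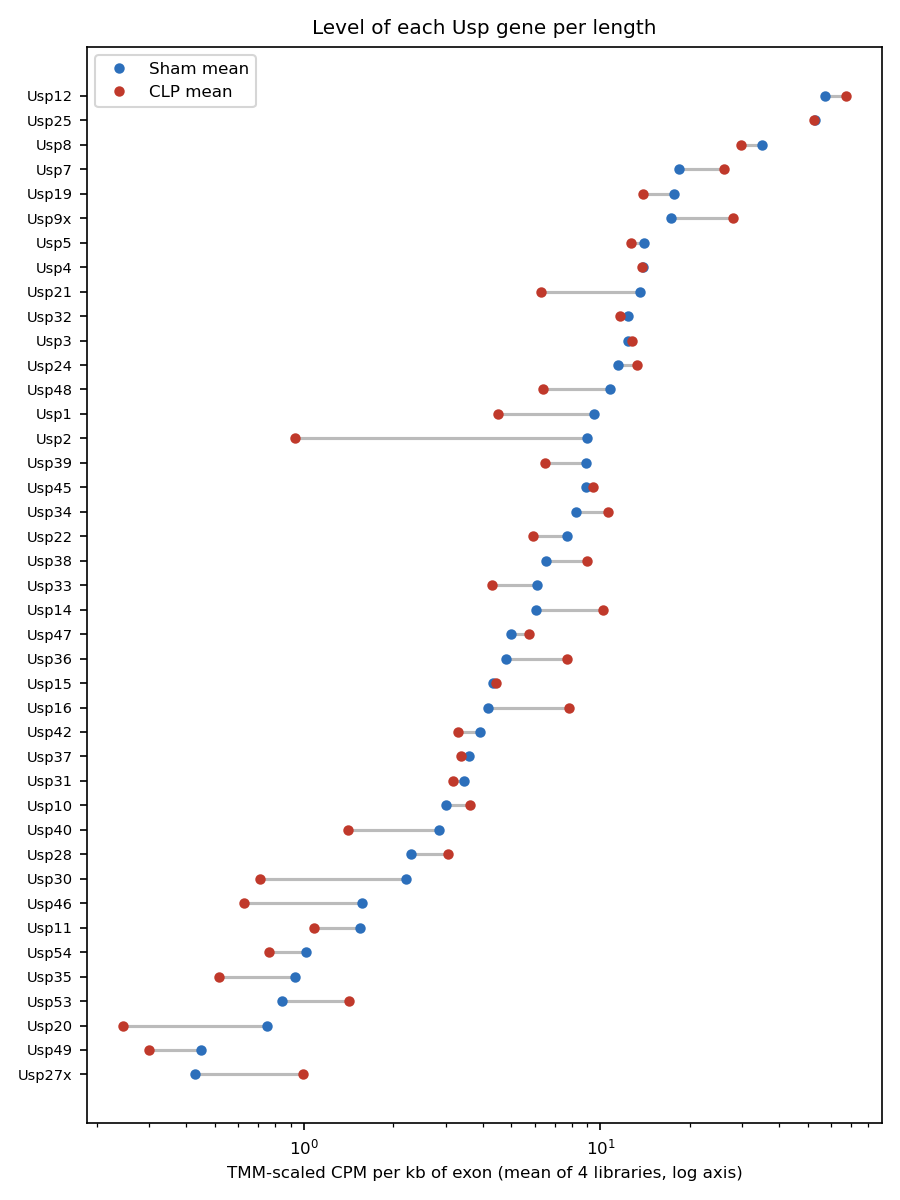
Mean TMM-scaled CPM per kb of exon (log axis) of each Usp gene in Sham and CLP (4 libraries each), ordered by the Sham level, with a line joining the groups. Usp12 and Usp25 lead in both groups, and Usp2 shows the longest line.

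Among members known for immune signalling, 4 of 8 fell, 1 rose and 3 did not pass, beside 29.5% of all genes lower and 24.9% higher. With so few members the role groups are described by these counts alone, with a median log2 fold change of -0.44 in this one. The lead was Usp2 (ENSMUSG00000032010), a deubiquitinase of the p53 regulator Mdm2 and of clock proteins, with a transcript that cycles over the day in many tissues. It stood at 35.5, 46.6, 51.5 and 40.3 TMM-scaled CPM in Sham replicates 1 to 4 and at 4.83, 3.98, 4.81 and 4.39 CPM in CLP replicates 1 to 4. The groups lay far apart, and the spread within CLP was small. This was a log2 fold change of -3.27 with an SE of 0.15 (edgeR adjusted p = 9.1e-07).

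Usp20 (ENSMUSG00000026854), which acts on receptors that return to the surface and on TRAF6, was at 6.02, 6.46, 6.44 and 8.04 CPM in Sham and at 2.83, 1.94, 1.79 and 2.29 CPM in CLP. All CLP libraries were below all Sham libraries (log2 fold change -1.60 ± 0.20; edgeR adjusted p = 9.2e-05). Usp21 (ENSMUSG00000053483), which removes ubiquitin from the kinase Ripk1 and from histone H2A, stood at 65.3, 65.5, 69.0 and 58.3 CPM in Sham and 24.7, 29.5, 39.6 and 26.4 CPM in CLP, with CLP replicate 3 the highest of its group. Its log2 fold change was -1.10 ± 0.15 (edgeR adjusted p = 1.3e-04). Usp48, a nuclear deubiquitinase that acts on the NF-kB subunit RelA, fell from 105 ± 14.1 to 61.7 ± 3.64 CPM (SD, n = 4).

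Usp38, which acts on the kinase Tbk1, was the 1 riser of the group, at 37.6 ± 1.63 CPM in Sham against 51.8 ± 6.06 CPM in CLP (a log2 fold change of 0.46). With total-count scaling it stood at -0.09. An antisense transcript, Gm9725, covers 20.5% of the exon bases of Usp38, and the strand setting of the count is not known.

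Usp25 (ENSMUSG00000022867) was at 339, 248, 268 and 241 CPM in CLP and at 283, 302, 237 and 276 CPM in Sham. The groups overlapped throughout, with means of 274 ± 44.9 and 274 ± 27.3 CPM (edgeR adjusted p = 0.99). Usp4 (ENSMUSG00000032612), which acts on TRAF adaptors and the TGF-beta receptor, likewise overlapped, at 137, 110, 118 and 110 CPM in CLP and at 123, 122, 125 and 111 CPM in Sham (edgeR adjusted p = 0.91). Usp31, an inhibitor of NF-kB signalling, had a log2 fold change of -0.12 ± 0.17.

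**Figure D3:**
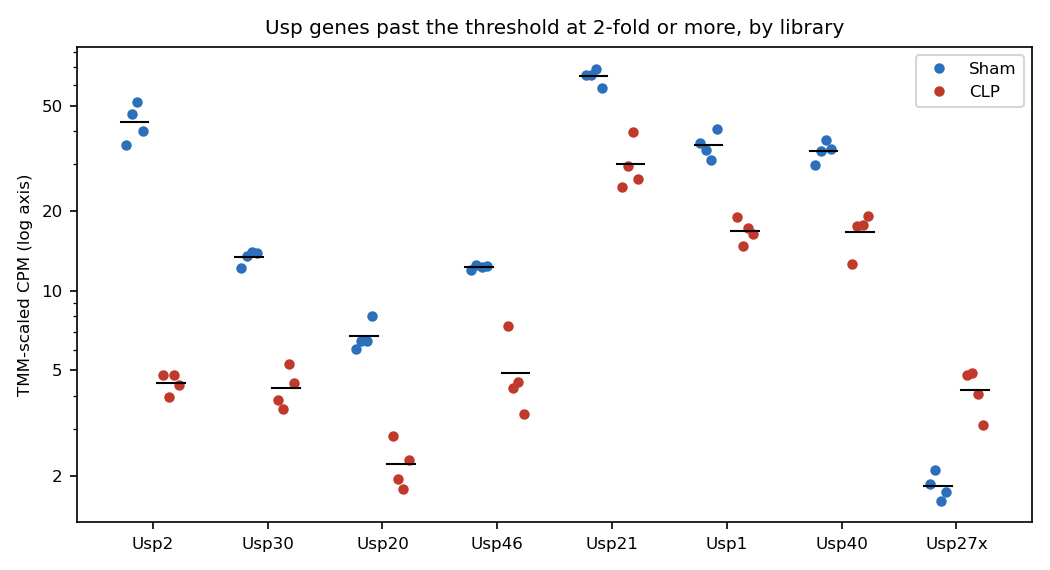
TMM-scaled CPM (log axis) in each library for the 8 Usp genes past the threshold at 2-fold or more, with the group mean as a bar. In each gene the 4 Sham and 4 CLP points are separate, with CLP lower except for Usp27x.

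The 3 members placed at mitochondria or the endoplasmic reticulum all fell in the edgeR test, where 29.5% of all genes fell, but the calls of Usp19 and Usp35 were lost in some alternatives. Usp30 (ENSMUSG00000029592), the deubiquitinase of the outer mitochondrial membrane that opposes Parkin, was at 12.2, 13.5, 14.0 and 13.8 CPM in Sham and at 3.87, 3.56, 5.27 and 4.49 CPM in CLP. No CLP library came near the Sham range (log2 fold change -1.64 ± 0.16; edgeR adjusted p = 1.6e-05). Usp19 (ENSMUSG00000006676), which has a form anchored in the endoplasmic reticulum, was at 124, 121, 134 and 119 CPM in Sham and 98.7, 93.7, 103 and 97.7 CPM in CLP. That fall was small (-0.34 ± 0.09; edgeR adjusted p = 0.0087) and did not pass with the GC correction (-0.21, adjusted p = 0.093). Usp35 had 1.33 CPM in CLP replicate 1 while CLP replicates 2 to 4 held 3.04 to 3.41 CPM, against 3.91 to 7.21 CPM in Sham. Its log2 fold change was -0.86 ± 0.31 (edgeR adjusted p = 0.038), and -0.62 without Sham replicate 3 (adjusted p = 0.116). It missed the threshold without CLP replicate 2 or 3, without Sham replicate 1 or 3, and with the GC correction (edgeR adjusted p = 0.055 to 0.116).

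Of the 2 members grouped by their activator Wdr48, Usp46 fell and Usp12 did not pass. Usp1, which shares this activator and also fell, was placed in the DNA damage group. Usp46 (ENSMUSG00000054814) was at 11.98, 12.5, 12.3 and 12.4 CPM in Sham and at 7.37, 4.29, 4.53 and 3.41 CPM in CLP, with CLP replicate 1 nearest to Sham (log2 fold change -1.32 ± 0.22; edgeR adjusted p = 4.7e-04). Usp12 (ENSMUSG00000029640) was at 302, 284, 380 and 283 CPM in CLP and at 273, 273, 249 and 263 CPM in Sham. Its groups did not overlap, but the difference was small beside the spread in CLP (0.24 ± 0.12; edgeR adjusted p = 0.12). DESeq2 called it higher (0.30, adjusted p = 0.038), and total-count scaling called it lower (-0.31, edgeR adjusted p = 0.036).

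In the histone, chromatin and nucleolus group 3 of 6 were higher and 2 lower, beside 24.9% and 29.5% of all genes. Usp27x (ENSMUSG00000046269), an X-linked relative of Usp22 that binds the same adaptor proteins, was at 4.83, 4.87, 4.08 and 3.12 CPM in CLP and at 1.86, 2.10, 1.61 and 1.74 CPM in Sham. Every CLP value was above every Sham value (log2 fold change 1.20 ± 0.22; edgeR adjusted p = 8.5e-04). Usp16, which takes ubiquitin off histone H2A, was at 67.6, 77.1, 72.3 and 79.5 CPM in CLP and at 43.7, 37.9, 41.3 and 35.1 CPM in Sham, again without overlap (0.91 ± 0.10; edgeR adjusted p = 4.9e-05).

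Usp36, a nucleolar deubiquitinase that stabilises Myc, rose from 37.0 ± 5.79 to 59.3 ± 11.0 CPM, with CLP replicate 1 at 43.9 CPM, inside the Sham range. Under total-count scaling the value was 0.12 in place of 0.68. Usp22 (ENSMUSG00000042506), the deubiquitinase of the SAGA coactivator complex, was at 40.8, 38.0, 34.4 and 37.4 CPM in Sham and at 38.5, 27.2, 25.8 and 24.2 CPM in CLP, so that CLP replicate 1 lay within the Sham range. Its call was at the limit (-0.38 ± 0.15; edgeR adjusted p = 0.0499) and was lost in 11 of 17 alternatives. Usp49, which acts on histone H2B, had a log2 fold change of -0.59 ± 0.22 (edgeR adjusted p = 0.045), lost in 10 of 17. Gm20517, a transcript on the same strand, covers 51.2% of the exon bases of Usp49, so the reads of the pair may have been divided or dropped. Usp3 (ENSMUSG00000032376), another histone H2A deubiquitinase, was at 102, 85.3, 86.5 and 74.8 CPM in CLP and at 90.8, 99.6, 57.04 and 92.6 CPM in Sham, with Sham replicate 3 the lowest of all (edgeR adjusted p = 0.86).

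The promoters of the members with the largest falls and rises are shown because these genes moved in opposite directions. The set of RefSeq promoters used here, on GRCm38.p6, held a start site for 32 of the 41 members. That build is earlier than the mm39 assembly of the counts, and the start used in Kupffer cells was not measured. Each line gives the 250 bases before the start, 5′ to 3′ on the strand of the gene, with matches to searched motifs in capitals.
Usp2, chr9:44084670-44084919, plus strand: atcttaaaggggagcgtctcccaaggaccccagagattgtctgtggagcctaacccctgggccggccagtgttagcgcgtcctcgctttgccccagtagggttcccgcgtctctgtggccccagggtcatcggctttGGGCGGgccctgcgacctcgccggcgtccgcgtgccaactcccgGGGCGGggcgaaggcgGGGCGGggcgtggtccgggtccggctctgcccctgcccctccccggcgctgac
Usp30, chr5:114100083-114100332, plus strand: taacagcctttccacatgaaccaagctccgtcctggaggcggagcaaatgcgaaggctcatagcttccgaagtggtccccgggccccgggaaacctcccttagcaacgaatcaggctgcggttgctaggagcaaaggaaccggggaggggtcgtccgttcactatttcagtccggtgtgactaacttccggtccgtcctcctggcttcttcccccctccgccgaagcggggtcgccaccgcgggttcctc
Usp27x, chrX:7375831-7376080, minus strand: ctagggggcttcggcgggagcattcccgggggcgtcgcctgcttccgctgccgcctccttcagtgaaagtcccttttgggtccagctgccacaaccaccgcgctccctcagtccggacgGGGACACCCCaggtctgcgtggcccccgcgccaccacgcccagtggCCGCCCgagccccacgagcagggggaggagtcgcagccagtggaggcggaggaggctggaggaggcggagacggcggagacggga
Usp16, chr16:87454735-87454984, plus strand: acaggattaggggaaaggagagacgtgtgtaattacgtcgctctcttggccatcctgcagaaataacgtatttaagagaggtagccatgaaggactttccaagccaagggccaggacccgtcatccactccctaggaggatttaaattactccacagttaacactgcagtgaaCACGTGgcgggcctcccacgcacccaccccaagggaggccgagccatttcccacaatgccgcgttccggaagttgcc
The motifs, read on both strands, were the GC box GGGCGG, the CCAAT box, the TATA box TATAAA, the E-box CACGTG, the cyclic AMP response element TGACGTCA and the NF-kB consensus. A GC box was present in 23 of 32 member promoters (71.9%) and in 32.7% of all 32851 windows, including 3 in Usp2 and 1 in Usp27x. The Usp30 window held no match. An E-box occurred in Usp16, Usp31 and Usp4 (9.38% against 6.02% of all windows), and the NF-kB consensus in Usp27x alone (3.12% against 3.9%). A CCAAT box was in 5 members (15.6% against 33.8%), a TATA box in Usp19 and Usp40 (6.25% against 12.4%), and the cyclic AMP response element in 0 members (1.55% of all windows). Matches to different motifs did not overlap in these 4 windows. The member shares use 1 window per gene, while the shares of all windows count every window, without a limit to the genes tested. The 2 kinds of share thus come from unlike sets, and a difference between them is not shown to be a trait of the family. A match describes letters and is not a measured binding site.

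In the DNA damage, p53 and cell cycle group 1 of 10 was higher, 2 were lower and 7 did not pass, where 54.3% of all genes passed in either direction. Usp7 (ENSMUSG00000022710), which stabilises Mdm2 and p53, was at 198, 215, 202 and 198 CPM in CLP and at 143, 145, 155 and 128 CPM in Sham (a log2 fold change of 0.51 ± 0.10; edgeR adjusted p = 0.0015). The groups did not overlap, but with total-count scaling the value was -0.05. Usp1 (ENSMUSG00000028560), which removes ubiquitin from Fancd2 and Pcna after DNA repair, was at 36.1, 34.1, 31.2 and 40.9 CPM in Sham and at 19.0, 14.8, 17.3 and 16.4 CPM in CLP, again without overlap (-1.07 ± 0.12; edgeR adjusted p = 4.5e-05). Usp11, linked to repair by Brca2, fell by 0.51 on the log2 scale (edgeR adjusted p = 0.036, lost in 7 of 17 alternatives).

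Usp10 (ENSMUSG00000031826), which acts on p53 and binds the stress granule protein G3bp1, was at 30.2, 35.6, 36.5 and 36.9 CPM in CLP and at 27.0, 27.0, 35.0 and 26.3 CPM in Sham. Sham replicate 3 lay among the CLP values (0.27 ± 0.12; edgeR adjusted p = 0.087), and without it Usp10 passed as higher (0.38, adjusted p = 0.018). It also passed with DESeq2 size factors, DESeq2, the GC and length corrections and without CLP replicate 1 (0.33 to 0.35, adjusted p = 0.025 to 0.037), while total-count scaling gave -0.29. Usp28, a partner of 53bp1 that stabilises Myc, was at 9.53 CPM in CLP replicate 1, while CLP replicates 2 to 4 held 19.6 to 21.7 CPM, against 12.7 to 14.1 CPM in Sham. Without that library it passed (0.63, edgeR adjusted p = 3.1e-04). Usp24, Usp37, Usp42, Usp45 and Usp47, which also act in repair or the cell cycle, had log2 fold changes of -0.24 to 0.20.

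In the endosome and trafficking group 1 of 4 rose and 1 fell, beside 24.9% and 29.5% of all genes. Usp9x (ENSMUSG00000031010), a large X-linked deubiquitinase of Mcl1 and of sorting proteins, was at 460, 475, 376 and 369 CPM in CLP and at 293, 259, 238 and 251 CPM in Sham (a log2 fold change of 0.69 ± 0.13; edgeR adjusted p = 9.9e-04). CLP lay wholly above Sham, and the value was 0.14 with total-count scaling (adjusted p = 0.303). Usp8 (ENSMUSG00000027363), which sorts receptors at endosomes with the Stam proteins, was at 144, 117, 121 and 118 CPM in CLP and at 145, 156, 141 and 147 CPM in Sham. CLP replicate 1 lay in the Sham range (-0.23 ± 0.10; edgeR adjusted p = 0.077), and without it Usp8 passed as lower (-0.31, adjusted p = 0.011). Usp33 fell from 59.1 ± 1.89 to 41.6 ± 0.772 CPM, while Usp32, which acts on Rab7, had a log2 fold change of -0.10 ± 0.10. Gm43857, Gm42967 and Gm43859 on the other strand cover 15.3%, 7.7% and 1.44% of the exon bases of Usp33.

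Of the members that recycle ubiquitin, Usp14 (ENSMUSG00000047879), which trims chains on the proteasome, rose and Usp5 did not pass. Usp14 was at 79.3, 88.8, 78.7 and 93.3 CPM in CLP and at 54.1, 51.6, 47.3 and 49.6 CPM in Sham (a log2 fold change of 0.75 ± 0.10; edgeR adjusted p = 1.2e-04). The groups did not overlap, but with total-count scaling the value was 0.19 (adjusted p = 0.087). Exons of Thoc1 on the other strand cover 26% of those of Usp14. Usp5 (ENSMUSG00000038429), which takes apart free ubiquitin chains, was at 74.3, 52.4, 55.0 and 52.5 CPM in CLP and at 69.0, 62.5, 63.5 and 64.8 CPM in Sham. The other 3 CLP libraries lay below Sham and CLP replicate 1 above it. Without that library Usp5 passed as lower (-0.28, edgeR adjusted p = 0.011).

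In the Wnt, TGF-beta and splicing group Usp34 rose, Usp39 fell and Usp15 did not pass. Usp34 (ENSMUSG00000056342), which stabilises axin, was at 200, 218, 170 and 191 CPM in CLP and at 145, 146, 175 and 146 CPM in Sham, with Sham replicate 3 inside the CLP range (log2 fold change 0.35 ± 0.12; edgeR adjusted p = 0.025). The call was lost in 8 of 17 alternatives, among them the replicate block (edgeR adjusted p = 0.059) and total-count scaling, where the value was -0.21. Exons of Ahsa2 on the other strand cover 11.6% of those of Usp34. Usp15 (ENSMUSG00000020124), which acts on the TGF-beta receptor complex, was at 62.0, 79.1, 77.5 and 75.3 CPM in CLP and at 67.0, 69.8, 81.6 and 69.4 CPM in Sham (edgeR adjusted p = 0.84). Usp39, a splicing factor of the family that lacks protease activity, fell from 21.8 ± 2.57 to 15.8 ± 1.10 CPM.

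Among the less described members Usp40 and Usp54 fell and Usp53 rose. Usp40 (ENSMUSG00000005501) was at 29.9, 33.8, 37.1 and 34.4 CPM in Sham and 12.6, 17.5, 17.7 and 19.2 CPM in CLP, without overlap (log2 fold change -1.01 ± 0.14; edgeR adjusted p = 1.7e-04). Usp53, found at tight junctions, was at 9.70 CPM in CLP replicate 1, level with the 9.62 to 11.1 CPM of Sham, while its group-mates stood at 18.7 to 21.7 CPM (0.75 ± 0.22; edgeR adjusted p = 0.015). With total-count scaling it was at 0.19 (adjusted p = 0.48). Usp54 had a log2 fold change of -0.41 ± 0.16 (edgeR adjusted p = 0.045), lost in 13 of 17 alternatives.

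**Figure D4:**
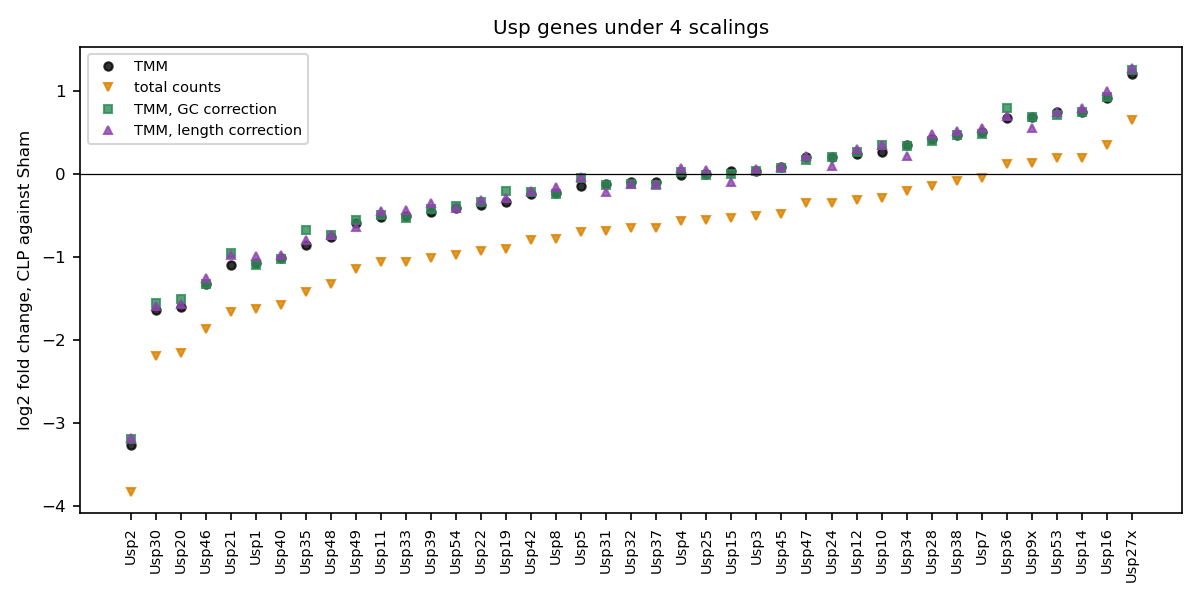
Log2 fold change of each Usp gene in CLP against Sham under TMM, total-count scaling, GC correction and length correction, ordered by the TMM value. Total-count values lie below the others throughout, and only Usp27x, Usp16, Usp14, Usp53, Usp9x and Usp36 stay above 0 under it.

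The ratio of 2 genes within 1 library does not depend on the scaling of that library. It was taken for 15 pairs of related members whose genes both passed the filter, as the log2 ratio of counts. In 10 of the 15 pairs the CLP and Sham values did not overlap, close to the share of 60.7% over all 820 pairs of members, so related genes diverged about as often as any members. The largest moves were in Usp2/Usp21 and Usp12/Usp46. Usp2 counts were 0.668 of those of Usp21 in Sham and 0.153 in CLP, and Usp12 counts were 21.5 times those of Usp46 in Sham and 65.5 times in CLP. Usp22 counts were 20.5 times those of Usp27x in Sham and 6.80 times in CLP.

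Smaller moves without overlap were those of Usp16/Usp45 (log2 ratio -0.49 ± 0.22 in Sham and 0.34 ± 0.07 in CLP, SD, n = 4), Usp36/Usp42 (0.59 ± 0.14 and 1.51 ± 0.15) and Usp20/Usp33 (-3.14 ± 0.20 and -4.24 ± 0.31). Usp53/Usp54 went from 0.22 ± 0.18 to 1.30 ± 0.51 and Usp35/Usp38 from -2.97 ± 0.38 to -4.32 ± 0.78, with CLP replicate 1 nearest to Sham in the first and farthest from it in the second. Usp7/Usp47 went from 1.06 ± 0.12 to 1.37 ± 0.17, and Usp9x/Usp24 from 0.87 ± 0.19 to 1.35 ± 0.16. The near relatives Usp4 and Usp15 kept a ratio of 1.67 in Sham and 1.62 in CLP, with overlapping libraries. In Usp25/Usp28, CLP replicate 1 lay above all Sham libraries and the other 3 CLP libraries below them.

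**Figure D5:**
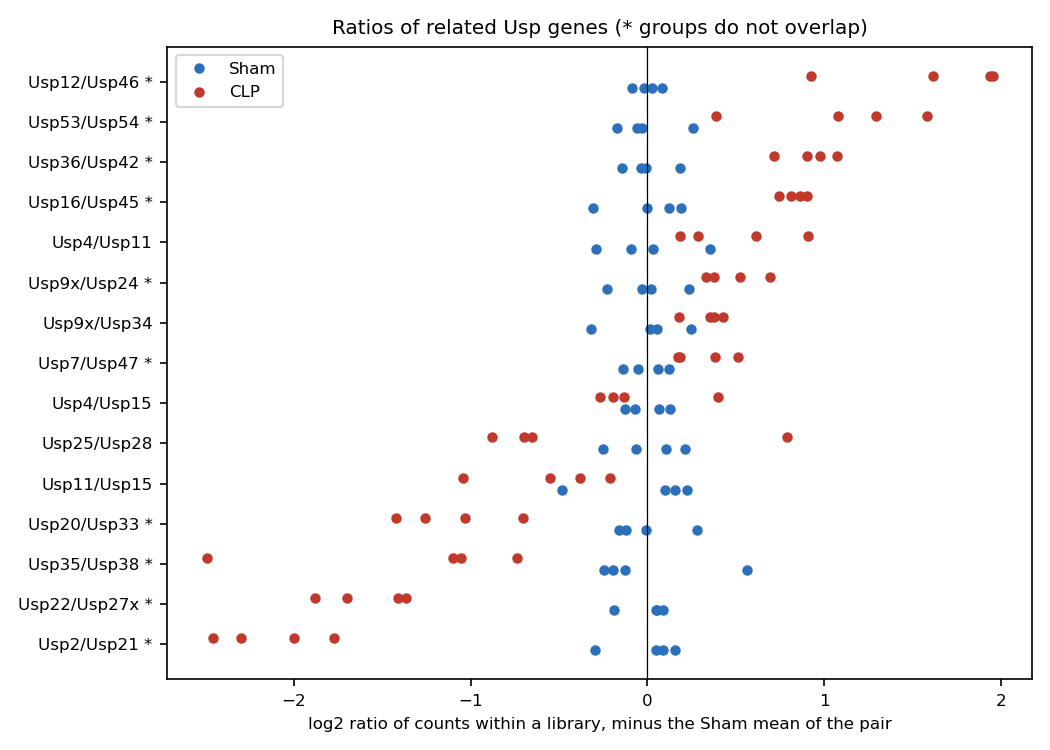
Log2 ratio of counts within each library for 15 pairs of related Usp genes, less the Sham mean of the pair, so that Sham centres on 0. A star marks the 10 pairs whose CLP and Sham libraries do not overlap, with Usp12/Usp46 moving up most and Usp2/Usp21 moving down most.

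Genes of the other deubiquitinase families moved in both directions: 13 of 39 tested rose and 12 fell, beside 24.9% and 29.5% of all genes. The lists go by family, and not every member is an active deubiquitinase. The median of the 39 was 0.07 on the log2 scale beside -0.04 over all genes. With total-count scaling 2 rose and 22 fell, where 1715 of all 14655 genes tested rose and 8292 fell. In the OTU family, which includes editors of chains in NF-kB signalling, 4 of 14 rose and 5 fell, beside 24.9% and 29.5% of all genes. Tnfaip3 (A20), the feedback inhibitor of NF-kB, stood at 202 ± 109 CPM in Sham against 4928 ± 779 CPM in CLP (a log2 fold change of 4.61). The other OTU risers were Otud7b (1.02), Otulin (0.87) and Otulinl (0.75), and the fallers were Otub2 (-2.15), Otud3 (-1.46), Otud1 (-1.16), Yod1 (-0.39) and Otud6b (-0.36). Of these rises, Tnfaip3 and Otud7b passed with total-count scaling.

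Of the 12 genes of the metalloprotease (JAMM) family, not all of them active proteases, 6 rose, where 24.9% of all genes rose. Among the 6 were the proteasome subunits Psmd7 (0.62) and Psmd14 (0.59) and Mpnd (0.61), and Stambp (-0.67) fell. Mindy1 (0.62), Mindy3 (0.60) and Atxn3 (0.48) rose, whereas Mindy4 (-1.49), Mindy2 (-0.95), Josd2 (-0.65), Josd1 (-0.42) and Uchl5 (-0.46) fell. None of these rises passed with total-count scaling. Of the 2 genes with a related protease fold outside the naming rule, Uspl1 fell (-0.71), and Cyld, which cuts linear and lysine-63 chains, was at 67.8 ± 6.09 CPM in Sham against 53.7 ± 14.2 CPM in CLP (edgeR adjusted p = 0.109).

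Of 13 partners of Usp proteins, 5 rose at an adjusted p of 0.05 in edgeR, where 24.9% of all genes rose, and the median was -0.13. Of the partners with lower values, Atxn7, a subunit of the SAGA module with Usp22, came nearest to the threshold (-0.34; edgeR unadjusted p = 0.036, adjusted p = 0.064). G3bp1, the partner of Usp10, stood at 115 ± 14.99 CPM in Sham against 283 ± 5.80 CPM in CLP (a log2 fold change of 1.30), and Stam2, a partner of Usp8, rose by 1.25 on the log2 scale. The other 3 partners that rose were Adrm1 (0.70), Hgs (0.53) and Wdr48 (0.41), the activator shared by Usp1, Usp12 and Usp46. With total-count scaling G3bp1 (0.75) and Stam2 (0.70) passed as higher and 8 partners as lower. Under that scaling 1715 of all 14655 genes tested passed as higher and 8292 as lower.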

How the data were processed

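RNA-seq of sorted Kupffer cells, 4 CLP and 4 Sham libraries, was analysed from the deposited table of raw counts per Ensembl gene (55414 rows, whole numbers). The authors' pipeline names mm39 as the assembly, with STAR 2.7.10b, FastQC, DESeq2 and featureCounts, per the submitters' processing notes. The strand option, like the other settings and the annotation release, is not given in the sources used here. Libraries were prepared with the Illumina TruSeq stranded kit, per the labels' protocols. Reads were not aligned again.

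Symbols came from GENCODE M21 (52081 rows matched, 99.8% of counts), as did exon lengths, transcript GC content and exon overlaps. Promoter sequences came from RefSeq (GRCm38.p6).

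After filterByExpr and TMM scaling, edgeR 4.0.16 (R 4.3.3) compared CLP with Sham by its robust quasi-likelihood test, with no covariate. P-values were adjusted by Benjamini-Hochberg over 14655 genes, with a threshold of 0.05. Each SE was taken as the size of the log2 fold change divided by the root of its F statistic. Ratios used counts + 0.5. Exon lengths give CPM per kb.

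Named with every library were members past the threshold at 2-fold or more, the most abundant member of each role group per kb, and 13 fixed genes; Usp16 was added after its values were seen. In other lists the 3 members with the smallest p, and all members of counts of 5 or fewer, were eligible. Members and lists were chosen with earlier results of these data known. Alternatives are those of the closing section, run with edgeR, DESeq2 1.42.0 and limma 3.58.1; GC and length corrections fitted a spline per library.

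The scripts were tested on simulated data before use. There edgeR found 8 of 50 genes changed 1.5-fold and 28 of 50 changed 2-fold, with 6 false among 135 calls. DESeq2 found 14 and 35 of them, with 36 false among 180 calls. Few genes were changed in that simulation, unlike in the data. Some genes of one further list are not reported here.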

Additional observations from a re-analysis of the deposited data

Results flagged for a closer look

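In 82 groups of 4 libraries (41 members, CLP and Sham), 7 held a library far from the other 3 of its group, where chance gives about 1 in 20 groups. All 7 were in CLP replicate 1 or Sham replicate 3. In CLP replicate 1, Usp28 was at 9.53 CPM against 19.6 to 21.7 CPM, Usp5 at 74.3 CPM against 52.4 to 55.0 CPM and Usp8 at 144 CPM against 117 to 121 CPM in the other CLP libraries. In Sham replicate 3, Usp10 was at 35.0 CPM against 26.3 to 27.0 CPM, Usp34 at 175 CPM against 145 to 146 CPM, Usp35 at 7.21 CPM against 3.91 to 4.40 CPM and Usp48 at 126 CPM against 95.2 to 99.4 CPM in the other Sham libraries. Values of Usp28, Usp5, Usp8, Usp10 and Usp35 without these libraries stand with the genes in the report. Usp34 and Usp48 kept their calls without Sham replicate 3.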

How the results depend on the processing

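Of the 25 calls among Usp genes, 12 kept their direction and side of the threshold in all 17 alternatives: the rises of Usp16 and Usp27x and the falls of Usp1, Usp2, Usp20, Usp21, Usp30, Usp33, Usp39, Usp40, Usp46 and Usp48. The count of higher members was 9 and fell to 2 with total-count scaling, while the count of lower members went from 16 to 30. Over all genes tested the counts went from 3644 to 1715 higher and from 4319 to 8292 lower. Leaving out 1 library at a time gave 8 to 12 higher and 11 to 16 lower members. Over all genes tested 3244 to 4235 were higher and 3716 to 4997 lower. These runs also gave 21 to 29 called genes in the other deubiquitinase families. The median of the members was -0.12 to -0.07, and 10 to 12 related pairs were without overlap. The median of -0.10 moved to -0.035 with DESeq2 size factors, -0.035 with DESeq2, -0.65 with total-count scaling and -0.15 without a count filter, by more than the SD of 0.04 between libraries. Same-numbered CLP and Sham libraries deviated with correlations of -0.12 to 0.17, inside the range of -0.41 to 0.33 for libraries with different numbers. These values show no sign of pairing by number, but weak correlations cannot exclude it. With the replicate block 8 members were higher and 14 lower, beside 3491 and 4303 of all 14655 genes tested.

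Total-count scaling turned the values of Usp7 (-0.050), Usp38 (-0.090), Usp28 (-0.14), Usp34 (-0.21), Usp10 (-0.29), Usp12 (-0.31), Usp47 (-0.35), Usp24 (-0.36), Usp45 (-0.48), Usp3 (-0.51) and Usp15 (-0.53) negative. Members near 0 changed sign elsewhere without passing. Usp15 was at -0.026 without a filter, -0.0028 with GC and -0.094 with length correction. Usp3 was at -0.018 without a filter. Usp25 was at 0.059 with DESeq2 size factors and with DESeq2, 0.0048 with the strict filter and 0.051 with length correction. Usp4 was at 0.046 with DESeq2 size factors and with DESeq2, 0.028 with GC and 0.077 with length correction. With 1 library left out, Usp15 ranged from -0.0015 to 0.10, Usp25 from -0.12 to 0.062, Usp3 from -0.11 to 0.13, Usp31 from -0.19 to 0.021 and Usp4 from -0.089 to 0.026. The cause of these changes was not tested. At this depth the members with the lowest levels, such as Usp27x and Usp49, rest on fewer counts, and a missed threshold does not show that a gene did not differ.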
